A study of Homo sapiens with 15 samples.

Results

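The iron and haem handling genes were followed on microarrays of PE/CA-PJ41 cells, a human oral squamous carcinoma line, with and without a cytoglobin transgene. 10 genes were chosen by name: the ferritin chains FTH1 and FTL, the importers TFRC and SLC11A2, the exporter SLC40A1, the iron regulatory proteins ACO1 and IREB2, the haem synthesis enzymes ALAS1 and FECH, and the haem oxygenase HMOX2. All probes whose RefSeq accession on the array belonged to any of these genes were kept, which gave 15 probes of the 42405 non-control probes on the array. Those 42405 probes covered 19483 genes through RefSeq accessions. The rule itself uses no measured value.

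The CYGB+ cells carried human cytoglobin cDNA in the pCMV6-Neo plasmid and were stable transfectants picked with cloning rings under G418 sulfate. The study's methods give them as 1 clone, so clone and transgene cannot be told apart. The NCE (MOCK) cells were labelled as holding the empty transfection vector, although the study's text also calls its control un-transfected. Both were grown in supplemented RPMI1640, which in the study's methods held penicillin and streptomycin. Apart from these antibiotics and G418, neither was exposed to any drug before extraction. The study's text does not say whether the NCE cells also had G418. RNA came from 3 biological replicates of each, with 3 arrays for each NCE replicate and 2 for each CYGB+ replicate, 15 arrays in all, and signals were averaged over the arrays of a replicate before any test. CYGB+ and NCE below mean the samples so labelled.

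Iron enters most cells bound to transferrin through the transferrin receptor, is carried out of the endosome by the divalent metal transporter, and is stored inside the ferritin shell or built into haem and iron sulfur clusters. When iron is scarce, the iron regulatory proteins bind a hairpin called the iron-responsive element, which blocks translation of ferritin messages and protects the message of the transferrin receptor from decay. Much of this control therefore acts on protein output and message stability, and arrays read messenger RNA alone. Cytoglobin itself is a haem protein, and the comparison asks whether the messages of iron and haem handling differ between cells with and without its transgene.

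A stretch of FTL with the loop letters of the iron-responsive element is shown because ACO1, the member that passed the test below, encodes a protein that binds such elements. The stretch stops where the start window stops, so it need not hold the whole hairpin. In the RefSeq sequence of GRCh38.p14 the stretch lies at chr19:48965329-48965358 on the plus strand, bases 21 to 50 after the transcription start, in the 5′ untranslated part of the message. The capitals mark the loop letters, searched as CAGTGN, with no other motif searched.
FTL: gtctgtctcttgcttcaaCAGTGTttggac
On the message's own strand, CAGTGN stood in the first 50 bases of 6.36% of 35116 RefSeq start windows. Over the whole 300 bases and both strands it stood in 52.5%, so the letters by themselves mark no element. FTL was the only gene among the 9 members with a window whose first 50 bases held them. The windows stop there, so elements further along a message, in any member, could not be seen. The other ferritin gene, FTH1, had no window and was not searched.

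The arrays were checked before the genes were compared. Between 53.8% and 61.3% of green spots were well above background, and no spot of a member probe was saturated. The first array of CYGB+ replicate 1 stood apart, with a mean correlation of 0.911 with the other arrays. NCE replicate 3 array 2 (0.957) and CYGB+ replicate 3 array 2 (0.962) came next, and the other 12 arrays lay between 0.969 and 0.975. Results that rest on these 3 arrays are given with and without them. The NCE arrays lay on slide 1 except for 1, and all 6 CYGB+ arrays lay on slide 2 with that 1 NCE array. Slide and group could therefore be separated only through that array. All 7 squamous epithelial markers (KRT5, KRT14, KRT17, KRT6A, TP63, EPCAM and CDH1) were well above background on all 15 arrays and none passed the test below. Of the other lineages, endothelial markers were above background on at most 1 array and HBB on 1, whereas VIM, COL1A2 and CD68 were bright throughout. COL1A2 was lower in CYGB+ by a log2 difference of -2.54 (limma adjusted p = 0.00215), whereas VIM did not pass (-0.88, limma adjusted p = 0.0698), COL1A1 did not either, and PDGFRB was not well above background on any array. The part of this difference in the results below was not tested. The CYGB probe was bright in both groups, at 12.84, 13.14 and 12.96 in the NCE replicates and 12.39, 13.47 and 13.01 in the CYGB+ replicates (log2 signal, limma adjusted p = 0.970). It did not separate the groups. The study describes the parent line as not expressing cytoglobin, so the bright NCE signal differs from that description. The reason was not tested. Where the probe binds relative to the transgene is not given, and it bears out no label. The directions below rest on the labels, and the differences rest on the green channel holding the RNA of the labelled sample.

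Of the 15 member probes, 13 passed the filter on dim probes and were tested, covering 9 of the 10 genes. 1 of the 13 passed an adjusted p of 0.05 (limma with Benjamini-Hochberg adjustment over all 22357 probes tested): the ACO1 probe, which was lower in CYGB+. That share, 7.69%, is near the 8.25% of all probes tested that passed. The median log2 difference of CYGB+ minus NCE over the 13 probes was 0.23, against 0.00 for all probes, and the median absolute difference was 0.42 against 0.31. The 3 CYGB+ values and the 3 NCE values did not overlap in 5 of the 13 probes, against 33.2% of all probes tested. With the replicate number as a block, 2 of the 13 passed, ACO1 and 1 of the SLC11A2 probes, against 11.6% of all probes.

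**Figure D1:**
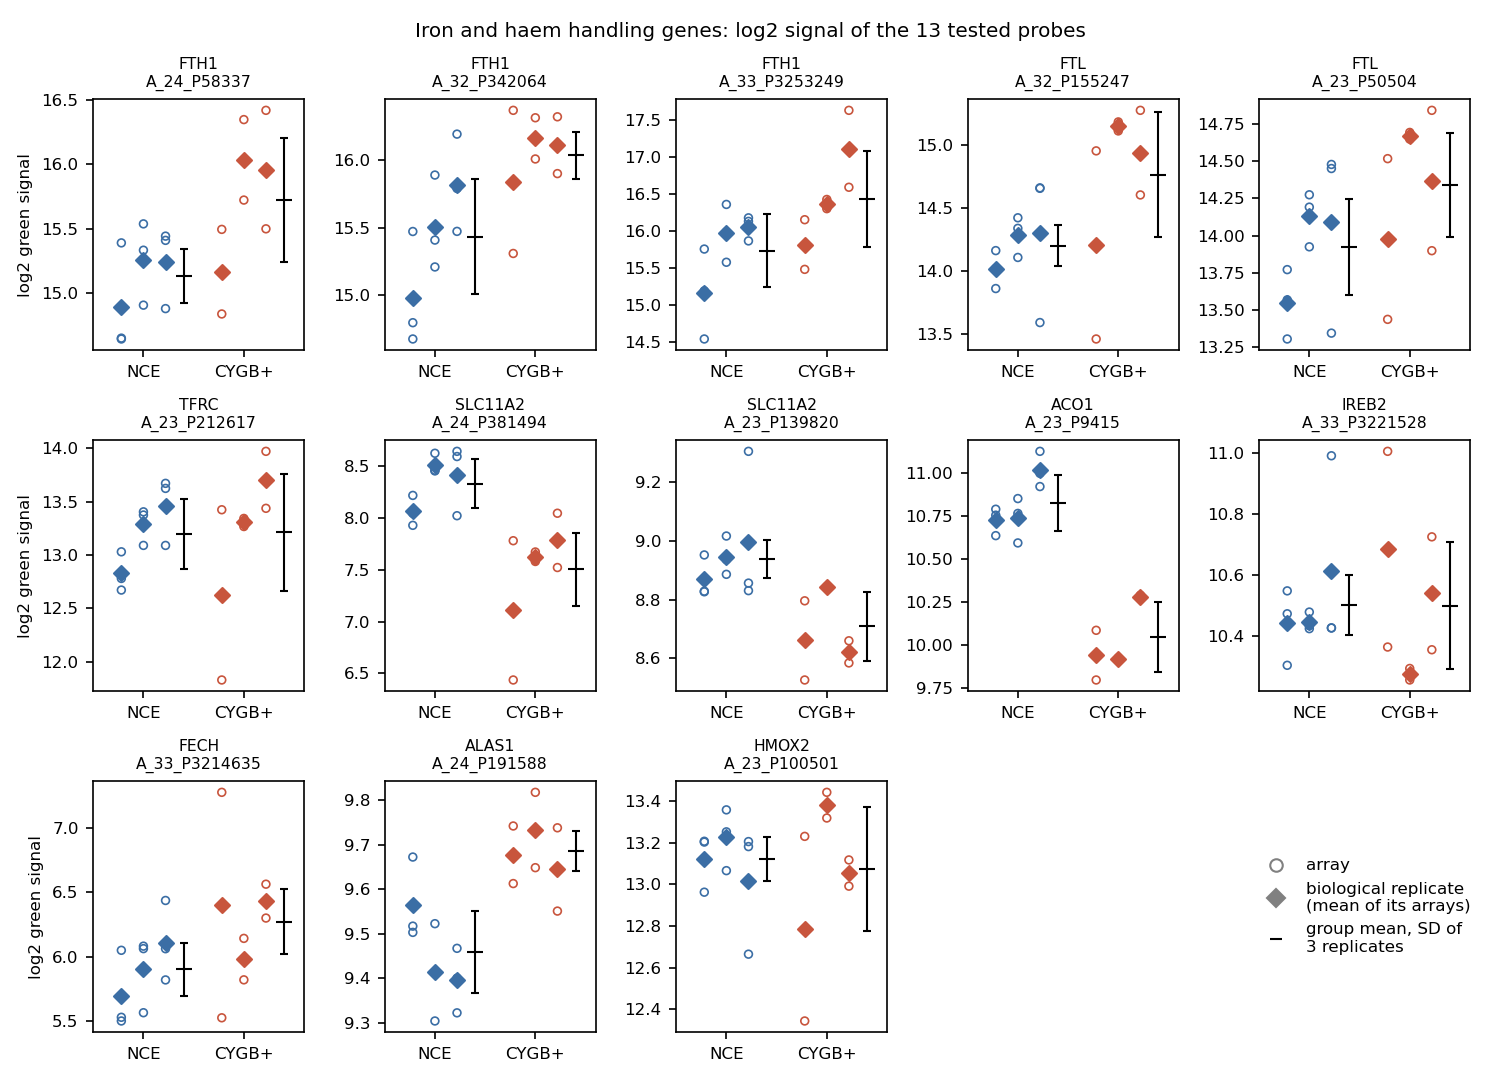
Log2 green signal (vertical axis, a scale of its own in each panel) of the 13 tested member probes in NCE (blue) and CYGB+ (red). Open circles are arrays, diamonds are biological replicates (the mean of their arrays, 3 per group) and bars are the group mean with the SD of the replicates; the ACO1 groups are apart, and in the FTL, TFRC and SLC11A2 A_24_P381494 panels the lowest CYGB+ circle is the first array of replicate 1.

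The storage genes were read by 5 probes, and the CYGB+ mean was above the NCE mean in all 5, by log2 differences of 0.42 to 0.70, but none passed the test. FTH1 encodes the ferritin heavy chain, which oxidises iron as it enters the shell, and FTL encodes the light chain, which helps to lay down the mineral core. The FTH1 probe A_32_P342064 read 14.98, 15.50 and 15.82 in NCE replicates 1, 2 and 3 and 15.84, 16.16 and 16.11 in the CYGB+ replicates (log2 signal). Its groups lay side by side without overlap, separated by 0.02. The log2 difference was 0.60 ± 0.24 (SE, n = 3 per group), with a 95% interval of 0.05 to 1.16 (limma adjusted p = 0.157).

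The FTH1 probe A_24_P58337 read 14.89, 15.26 and 15.24 in NCE and 15.16, 16.04 and 15.96 in CYGB+. CYGB+ replicate 1 lay among the NCE values, and the other two lay above all of them. The difference was 0.59 ± 0.26 (SE, limma adjusted p = 0.199). The third FTH1 probe, A_33_P3253249, had the widest spread, with 15.16, 15.98 and 16.06 in NCE and 15.82, 16.36 and 17.11 in CYGB+, and a difference of 0.70 ± 0.37 (SE, limma adjusted p = 0.274). The 3 FTH1 probes therefore gave close differences, between 0.59 and 0.70, with the groups overlapping on a pair of them.

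For FTL, probe A_32_P155247 read 14.01, 14.29 and 14.30 in NCE and 14.21, 15.15 and 14.94 in CYGB+. The low CYGB+ replicate was again replicate 1, whose first array read 13.46 while the other 5 CYGB+ arrays read 14.60 to 15.27. The difference was 0.56 ± 0.26 over all arrays (SE, limma adjusted p = 0.215). Without that array it was 0.81 and passed the test (limma adjusted p = 0.0118), as it did without all 3 arrays that stood apart (0.81, limma adjusted p = 0.0242), settings in which 16.7% and 22.0% of all probes passed. The FTH1 probe A_24_P58337 passed without the first array (0.70, limma adjusted p = 0.0468) but not without the 3 (0.79, limma adjusted p = 0.0660). The second FTL probe, A_23_P50504, read 13.55, 14.13 and 14.09 in NCE and 13.98, 14.67 and 14.37 in CYGB+. These groups overlapped, with a difference of 0.42 ± 0.24 (SE, limma adjusted p = 0.320).

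Ferritin has many near-identical copies in the genome, and which of them the probes also bind was not tested. The probe of FTHL17, a heavy chain relative, was bright too, at 13.21, 13.28 and 13.44 in NCE and 13.45, 13.88 and 14.44 in CYGB+, a difference of 0.61 ± 0.26 (SE, limma adjusted p = 0.177). The mitochondrial ferritin FTMT was well above background on 5 of 15 arrays and was not tested.

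Among the uptake genes, the transferrin receptor did not pass the test and the divalent metal transporter read lower in CYGB+ on both of its probes without passing it. TFRC read 12.83, 13.29 and 13.46 in NCE and 12.63, 13.30 and 13.70 in CYGB+ (log2 signal). The groups were interleaved, and the log2 difference was 0.02 ± 0.30 with a 95% interval of -0.69 to 0.73 (limma adjusted p = 0.976). On the first array of CYGB+ replicate 1 TFRC read 11.83, below the 13.27 to 13.97 of the other CYGB+ arrays. Without that array the difference was 0.29 (limma adjusted p = 0.362).

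SLC11A2 encodes DMT1, which moves ferrous iron across the endosomal and plasma membranes. Its probe A_24_P381494 read 8.06, 8.51 and 8.42 in NCE and 7.11, 7.63 and 7.78 in CYGB+. All 3 CYGB+ values lay below all 3 NCE values. The log2 difference was -0.83 ± 0.23, with a 95% interval of -1.36 to -0.29 (limma adjusted p = 0.0674), and with the replicate number as a block it passed (limma adjusted p = 0.0303). It also passed without the first array of CYGB+ replicate 1, at a smaller -0.60 (limma adjusted p = 0.0399), and in 6 of 18 alternatives in all, but not without the 3 arrays (-0.58, limma adjusted p = 0.0654). Probe A_23_P139820 of the same gene read 8.87, 8.95 and 9.00 in NCE and 8.66, 8.84 and 8.62 in CYGB+. Its groups did not overlap either, but the difference was -0.23 ± 0.15 (SE, limma adjusted p = 0.374). Which SLC11A2 transcripts each of the probes reads is not given in the sources used here.

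Of the iron regulatory proteins, ACO1 fell in CYGB+ and IREB2 did not pass the test. ACO1 encodes iron regulatory protein 1, which with an iron sulfur cluster is the cytosolic aconitase and without it binds iron-responsive elements. Its probe read 10.73, 10.74 and 11.02 in NCE and 9.94, 9.92 and 10.28 in CYGB+. The highest CYGB+ replicate lay 0.45 below the lowest NCE replicate. ACO1 was 1.72-fold lower in CYGB+, a log2 difference of -0.78 ± 0.18 (SE, n = 3 per group) with a 95% interval of -1.19 to -0.36 (limma adjusted p = 0.0412). As this is the signal of RNA from whole cultures, fewer cells with the message and less message per cell cannot be told apart. The difference held its size with slide as a term (-0.78, limma adjusted p = 0.0780) and between the arrays of slide 2 alone (-0.74, limma adjusted p = 0.556), but the call was lost in both, and also without any of the 6 replicates in turn (-0.90 to -0.68, limma adjusted p from 0.0555 to 0.159). In the deposited value table, whose log base is not stated and on which differences run smaller than on the scanner's log2 scale, it was -0.40 (limma adjusted p = 0.0788). Without the 3 arrays that stood apart, the 8 NCE arrays read 10.59 to 11.00 and the 4 CYGB+ arrays 9.92 to 10.29 (-0.71, limma adjusted p = 0.0146).

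IREB2 encodes iron regulatory protein 2, which has no cluster and is degraded when iron is plentiful. It read 10.44, 10.45 and 10.62 in NCE and 10.69, 10.28 and 10.54 in CYGB+, and the groups overlapped. The log2 difference was 0.00 ± 0.17, with a 95% interval of -0.40 to 0.40 (limma adjusted p = 0.998), and its sign turned under the scaling to the 75th percentile (0.07).

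The haem genes differed by less than the test could call. ALAS1 encodes the first and rate-limiting enzyme of haem synthesis outside the erythroid lineage. It read 9.56, 9.41 and 9.40 in NCE and 9.68, 9.73 and 9.64 in CYGB+. The groups did not overlap, but they were close, with a log2 difference of 0.23 ± 0.15 and a 95% interval of -0.11 to 0.57 (limma adjusted p = 0.363). With slide as a term the ALAS1 difference was 0.04.

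FECH encodes ferrochelatase, which puts iron into protoporphyrin at the last step. Probe A_33_P3214635 read 5.69, 5.90 and 6.11 in NCE and 6.40, 5.98 and 6.43 in CYGB+. The groups overlapped, with a difference of 0.37 ± 0.20 (SE, limma adjusted p = 0.271), which came to 0.08 without the first array of CYGB+ replicate 1. The other FECH probe, A_32_P151933, was well above background on 1 of 9 NCE and 1 of 6 CYGB+ arrays and was not tested. HMOX2, the constitutive haem oxygenase, read 13.12, 13.22 and 13.02 in NCE and 12.79, 13.38 and 13.05 in CYGB+. The NCE values lay inside the CYGB+ range, with a difference of -0.05 ± 0.19 (SE, limma adjusted p = 0.898) whose sign turned under the scaling to the 75th percentile (0.08).

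SLC40A1 encodes ferroportin, the known cellular iron exporter. Its probe was well above background on 1 of 9 NCE arrays and 1 of 6 CYGB+ arrays. The values, 2.49, 2.41 and 2.39 in NCE and 3.02, 3.06 and 2.99 in CYGB+, did not overlap, but no fold is given because neither group was well above background.

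**Figure D2:**
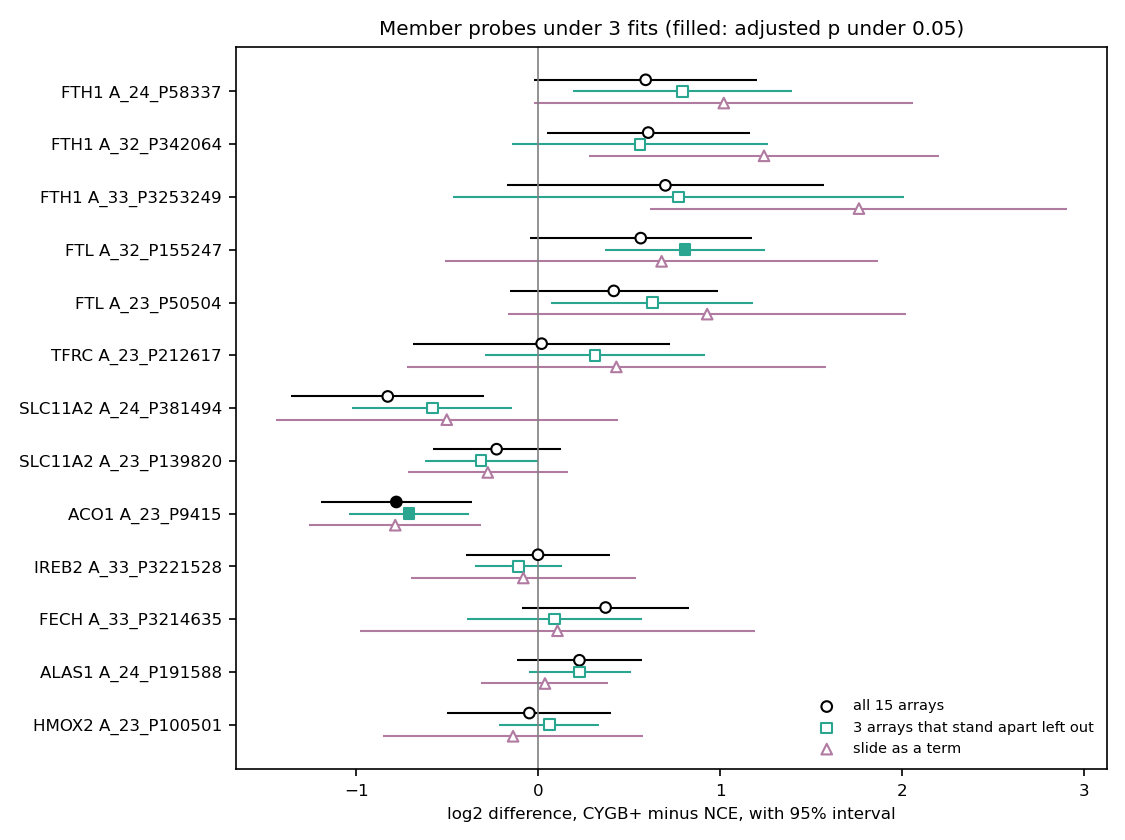
Log2 difference of CYGB+ minus NCE (horizontal axis) with its 95% interval for the 13 tested member probes, over all 15 arrays (circles), without the 3 arrays that stood apart (squares) and with slide as a term (triangles); filled symbols passed an adjusted p of 0.05. ACO1 stays between -0.78 and -0.71 in the 3 fits, the estimates of the 5 ferritin probes stay above 0, and the slide term widens the intervals.

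With slide as a term, and the arrays fitted without averaging, the ferritin differences were larger. The 3 FTH1 differences were 1.02, 1.24 and 1.76 and the FTL differences 0.68 and 0.93, none of them past the test, and the SLC11A2 difference on A_24_P381494 shrank to -0.50. In that fit 2.75% of all probes passed and no member probe did. These values lean on the 1 NCE array of slide 2, on which FTH1 probe A_33_P3253249 read 14.54 while the other NCE arrays read 15.19 to 16.36.

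**Figure D3:**
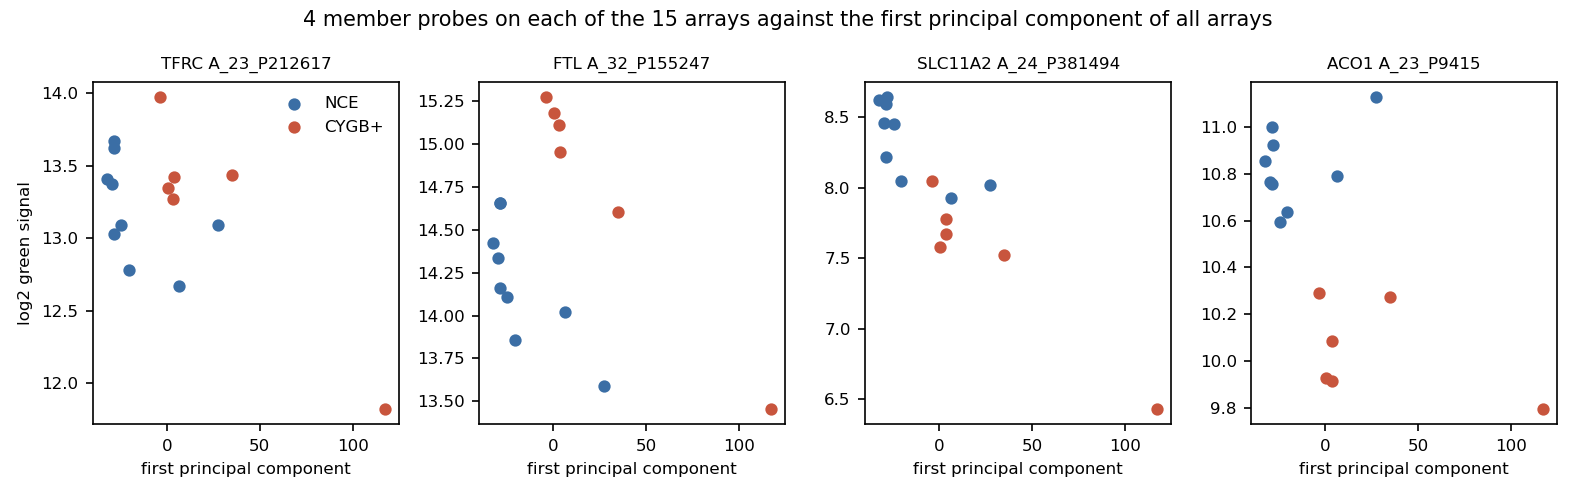
Log2 green signal of 4 member probes (vertical axis) on each of the 15 arrays against the first principal component of all arrays (horizontal axis, no unit), NCE in blue and CYGB+ in red. The point at the far right is the first array of CYGB+ replicate 1, which has the lowest TFRC (11.83), FTL (13.46) and SLC11A2 (6.44) signal of all arrays, and ACO1 separates the groups along the whole axis.

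The first principal component, which held 40.5% of the variance, was set mainly by the array that stood apart. On the 12 arrays other than the 3 far along it, the FTL probe A_32_P155247 read 13.86 to 14.66 in the 8 NCE arrays and 14.95 to 15.27 in the 4 CYGB+ arrays. These ranges did not overlap, but the arrays repeat the same biological replicates and were chosen after seeing the data. With all arrays, the replicate values of this probe overlapped. The share of all probes whose groups were apart on these 12 arrays was not counted. On those arrays TFRC read 12.67 to 13.67 in NCE and 13.27 to 13.97 in CYGB+, and SLC11A2 probe A_24_P381494 read 7.93 to 8.64 in NCE and 7.58 to 8.05 in CYGB+, so both overlapped.

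The wider pathway was described through 93 further genes in 6 lists, each gene by its brightest RefSeq probe. 92 had a probe and 77 were tested. 8 of the 77 (10.4%) passed the same test, 1 higher and 7 lower, against 4.42% of all probes higher and 3.82% lower. Their median log2 difference was 0.04. With the replicate number as a block the same 8 genes passed.

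HMOX1 was the gene that rose. It encodes the inducible haem oxygenase, which opens the haem ring and frees its iron, and so does the reaction of HMOX2 above. It read 7.53, 7.81 and 8.07 in NCE and 9.16, 9.24 and 9.16 in CYGB+. Every CYGB+ value was above every NCE value by more than 1 log2 unit. HMOX1 was 2.61-fold higher, a log2 difference of 1.38 ± 0.18 (SE, n = 3 per group, limma adjusted p = 0.00793), and 1.42 with slide as a term (limma adjusted p = 0.00311). It passed in 17 of 18 alternatives, and between the arrays of slide 2 alone the difference was 1.53 (limma adjusted p = 0.179). It was 1 of 12 tested genes of haem breakdown, transport and binding, and the other 11 did not pass. That share, 8.33%, is near the 8.25% of all probes tested that passed.

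Among the regulators 3 of 13 tested genes passed (23.1%), all lower, against 8.25% of all probes that passed and 3.82% that passed as lower. BACH1, a haem-binding repressor of HMOX1, read 10.03, 10.48 and 10.47 in NCE and 9.44, 9.10 and 9.40 in CYGB+ (-1.01 ± 0.19, limma adjusted p = 0.0243). The hypoxia-inducible factor subunits HIF1A and EPAS1 were lower by -0.98 ± 0.19 (limma adjusted p = 0.0243) and -0.89 ± 0.21 (limma adjusted p = 0.0432). A second HIF1A probe was lower as well, by -1.71 (limma adjusted p = 0.0167). In all 3 genes the groups did not overlap. Over the whole list they did not overlap in 5 of 13 genes (38.5%), against 33.2% of all probes tested. FBXL5, the ubiquitin ligase subunit that senses iron and removes IREB2 protein, differed by 0.02 ± 0.19 (limma adjusted p = 0.965). HIF1A passed in 12 of 18 alternatives, BACH1 in 11 and EPAS1 in 8, and EPAS1 lost the call without any of the 6 replicates in turn (limma adjusted p from 0.0632 to 0.158). With slide as a term HIF1A alone of these passed (-1.36, limma adjusted p = 0.0214), and BACH1 was at -0.85 and EPAS1 at -0.65.

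In the uptake and reduction list 3 of 10 tested genes passed (30%), all lower, against 8.25% of all probes that passed. The list's median log2 difference was -0.64. CYBRD1, a ferric reductase, read 8.13, 8.43 and 8.58 in NCE and 7.36, 7.28 and 7.49 in CYGB+ (-1.01 ± 0.18, limma adjusted p = 0.0180), but its second probe did not pass (-0.50, limma adjusted p = 0.580). SLC39A8, a zinc and iron importer, was at -0.90 ± 0.20 (limma adjusted p = 0.0405), and STEAP2, a metalloreductase, at -0.85 ± 0.20 (limma adjusted p = 0.0447). Of the 10 genes, 9 had groups that did not overlap, against the 33.2% of all probes given above: 8 of these read lower in CYGB+, and LCN2, a siderophore-binding protein of secretions, read higher without passing the test (1.16 ± 0.38, limma adjusted p = 0.105). CYBRD1 passed in 12 of 17 alternatives, and SLC39A8 and STEAP2 in 8 of 18 each, and SLC39A8 and STEAP2 lost the call without any of the 6 replicates in turn (limma adjusted p from 0.0532 to 0.149 and from 0.0540 to 0.171). With slide as a term none of the 3 passed, at -0.78 for CYBRD1, -0.65 for SLC39A8 and -0.89 for STEAP2.

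None of the 12 tested haem synthesis genes outside the members passed, with a median log2 difference of 0.08, and none of the 5 tested genes of storage, chaperones and export did, with a median of 0.04. NCOA4, the receptor that sends ferritin to autophagy, differed by 0.20 ± 0.18 (limma adjusted p = 0.527), and PCBP1, which delivers iron to ferritin, by 0.04 ± 0.17 (limma adjusted p = 0.905). The 25 tested genes of iron sulfur cluster assembly had a median of 0.20. The groups did not overlap in 13 of them (52%), against 33.2% of all probes tested. 1 of the 25 passed (4%), against 8.25% of all probes tested. That gene, ISCA2, a mitochondrial assembly factor, read 13.75, 13.84 and 13.82 in NCE and 13.11, 12.94 and 12.93 in CYGB+ (-0.81 ± 0.15, limma adjusted p = 0.0208). It passed in 9 of 18 alternatives, and with slide as a term it was at -0.58 and did not pass.

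**Figure D4:**
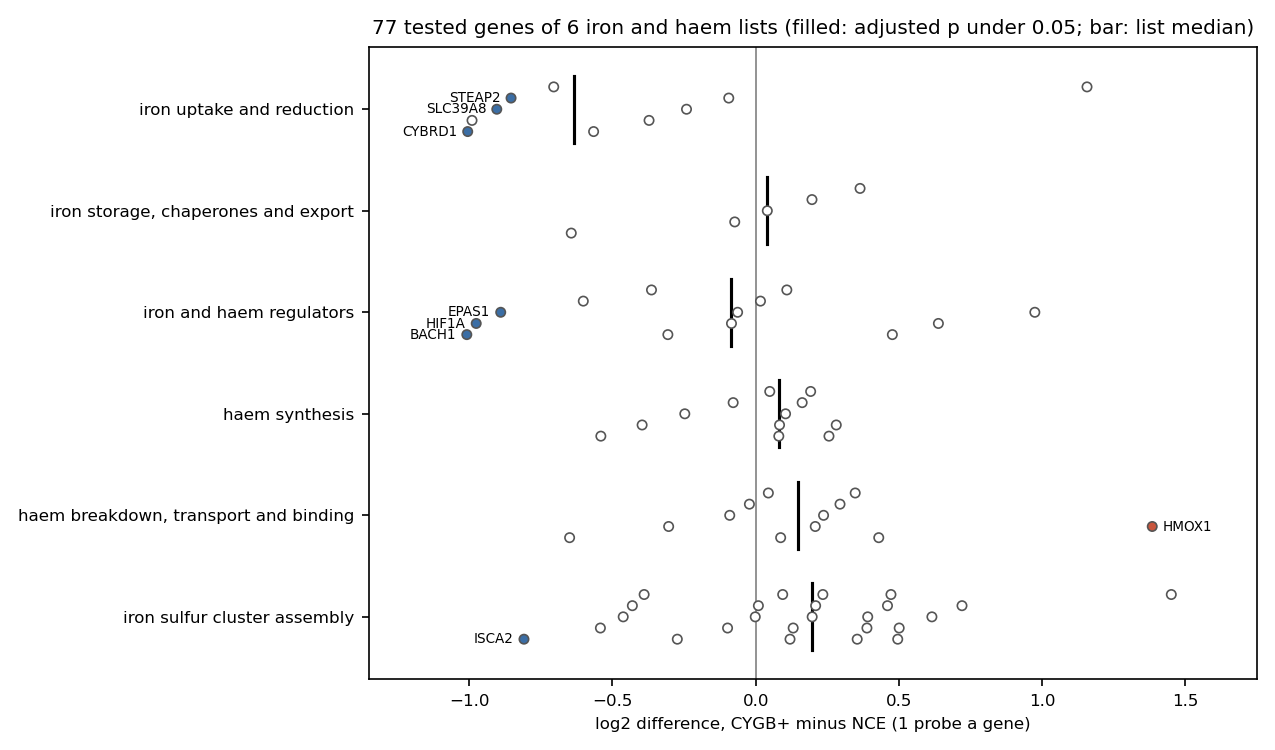
Log2 difference of CYGB+ minus NCE (horizontal axis) for the 77 tested genes of 6 iron and haem lists, with the members left out; each circle is a gene, filled circles passed an adjusted p of 0.05 (red higher, blue lower) and vertical bars are list medians. HMOX1 at 1.38 is the only filled circle right of 0, and 6 of the 7 on the left belong to the uptake and regulator lists.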

How the data were processed

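Total RNA was labelled and hybridised to Agilent SurePrint G3 Human Gene Expression arrays, scanned in 2 colours. The deposited scanner intensity was made by the authors with Feature Extraction 10.7.3.1 (background subtracted, detrended and dye-normalized within each array). The labels give cyanine 3 (green) for every sample, whereas the study's methods give cyanine 5 (red) for the control. The red channel's RNA is not given in the labels, so the green channel was used and its directions rest on the labels. If the control RNA was in red, the green signal of the NCE arrays is not that of NCE RNA. The differences given here would then not compare the 2 groups. Which of the sources holds was not tested. Green intensity was quantile normalized over the 15 arrays as log2, spots flagged as outliers were dropped, and arrays were averaged per replicate. Probes well above background on at least 6 arrays were tested with limma 3.58.1 in R 4.3.3, with Benjamini-Hochberg adjustment and a threshold of 0.05. The test was checked on simulated data. Array number and replicate spread limit the precision; an exact permutation test of 3 against 3 cannot go below p = 0.1.

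Same-numbered replicates of the groups, from RNA extractions on separate occasions, deviated together (correlations 0.219, 0.278 and 0.314), so they were treated as pairs in an alternative. A shifted numbering (1 with 2, 2 with 3, 3 with 1) gave 0.180, 0.225 and 0.171. The other shift (1 with 3, 2 with 1, 3 with 2) gave -0.490, -0.396 and -0.497. The p-values measure the spread between these extractions, within 1 CYGB+ clone and within the NCE cells, and no spread between clones. Other alternatives changed scaling, background correction, filter, array handling, slide and test; leaving out arrays that stood apart was added after seeing the data, and normexp used the median spot signal. The deposited value table (15040 probes) holds other log-scale values of the same arrays: its base is not stated, each probe is centred close to its CYGB+ median, and column medians run from -0.161 to 0.182. Its direction matched the scanner values (correlations of 0.893 to 0.984 per array).

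Named genes were all members, the wider-list genes past the threshold, HMOX1, CYBRD1, NCOA4, FBXL5 and PCBP1, CYGB, and the cell type markers. FTHL17, FTMT and LCN2 were added after their values were seen, as were the values printed for COL1A2, one of the markers. Members and lists were chosen with earlier results of these data known. Sequences came from RefSeq start windows (9 of the 10 members matched).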

Additional observations from a re-analysis of the deposited data

Results flagged for a closer look

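In 26 sets of arrays (13 tested member probes in each group), 5 had an array far from the others, by the gap to its neighbour as a share of the range; chance flags about 1 in 20 such sets. Of these, 3 were the first array of CYGB+ replicate 1: FTL A_32_P155247 (share 0.630; 13.46 against 14.60 to 15.27), TFRC (0.671; 11.83 against 13.27 to 13.97) and SLC11A2 A_24_P381494 (0.674; 6.44 against 7.52 to 8.05). The other two were NCE arrays: SLC11A2 A_23_P139820 on replicate 3 array 3 (0.603; 9.30 against 8.83 to 9.02) and IREB2 on replicate 3 array 2 (0.645; 10.99 against 10.30 to 10.55). The red channel, used in no comparison, had 55.6% to 61.4% of its spots well above background.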

How the results depend on the processing

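ACO1 kept its direction in all 18 alternatives and passed in 6. It missed with the 75th percentile scaling, no filter on dim probes, slide as a term, within slide 2, the methods' t-test and the deposited table, and without each replicate. The causes were not tested. The 5 ferritin probes, both SLC11A2 probes, FECH and ALAS1 kept their direction wherever they could be fitted. The sign turned for IREB2 with the 75th percentile scaling (0.075) and for HMOX2 with that scaling (0.085), normexp (0.011), without the first array of CYGB+ replicate 1 (0.099) and without 3 arrays (0.062). Leaving out replicates gave ranges of -0.227 to 0.312 for TFRC, -0.093 to 0.112 for IREB2 and -0.201 to 0.095 for HMOX2.

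The member probes that passed, 1 in the report, numbered 0 with the 75th percentile scaling, slide as a term, within slide 2 and the methods' t-test. They numbered 2 with normexp, with probes well above background on all arrays, with arrays fitted singly, with the replicate block (0.0303 for SLC11A2) and in the deposited table, 4 without the first array of CYGB+ replicate 1, and 2 without 3 arrays. Leaving out a replicate gave 0 to 2; the 2, without CYGB+ replicate 1, were FTH1 A_24_P58337 (0.87) and FTL A_32_P155247 (0.84), each higher. With no filter the 1 probe was SLC40A1, which is at background. The wider-list genes, 8 in the report, numbered 17 with normexp, 23 with arrays singly, 3 with slide as a term, 4 with the methods' t-test, 17 without 1 array and 22 without 3. Over all probes the counts moved the same way in each of these settings, as given below. Leaving out NCE replicate 1, 2 or 3 left 3, 2 or 1, and leaving out CYGB+ replicate 1, 2 or 3 left 6, 2 or 3.

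Over all probes, 1844 passed in the report, against 4815 with arrays singly, 615 with slide as a term, 29 within slide 2, 662 with the methods' t-test, 3729 without 1 array, 4911 without 3, and 395 to 1672 without a replicate. With the replicate block 2595 passed, and among the members and wider lists it changed no call but SLC11A2. Within slide 2 the NCE group is 1 array, taken to vary like the CYGB+ arrays.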
